A study of Mus musculus with 4 samples.

Results

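The genes described here are 6 genes of the complement system and the acute phase response, Serping1, C2, C3ar1, Cp, Hpx and Itih3, in mouse spinal cord. They were chosen by symbol, with their values in these data already known, from the clone table of a 2-colour cDNA array, and they are 6 of 10225 genes and 8 of 18511 spots assigned to 1 gene. Cp and C2 had 2 spots each and the other 4 genes 1 spot each. Cords came from adult female SJL/J mice, either control mice or mice with AT-EAE, adoptive-transfer experimental autoimmune encephalomyelitis, in which transferred myelin-reactive T cells cause inflammation and demyelination. The sources used here give neither the stage of disease nor any treatment of the control mice. Every extract pooled the cords of 2 mice, and each array was hybridized with 2 extracts of the same group, 1 per channel. There were 2 control arrays and 2 AT-EAE arrays, with extracts 1 and 2 on array 1 of a group and extracts 3 and 4 on array 2. The value of a spot is a log ratio between the 2 channels, taken to be base 2, with the numerator channel unknown. A ratio therefore compares pools of the same condition and holds no level difference between AT-EAE and control cord. Its sign depends on which pool was in which channel, and so does any signed mean, or spread of signed ratios, over the arrays of a group. It is the presence or absence of a value that can be set side by side between the groups, and the sources used here do not say why a spot has none. Values below are given with array 1 before array 2 of each group.

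Complement is a cascade of plasma proteases that tags surfaces with C3 fragments and releases small peptides that attract and activate leukocytes. Its classical arm starts with C1, whose proteases cut C4 and C2 to build the C3 convertase. C1 inhibitor, the product of Serping1, is a serpin that inactivates the C1 proteases. C3ar1 encodes the receptor for the C3a peptide, which myeloid cells carry. Acute phase proteins are plasma proteins whose synthesis changes in inflammation, mainly in the liver and under interleukin-6 signalling. Ceruloplasmin (Cp) is a copper-carrying ferroxidase that astrocytes also make, hemopexin (Hpx) binds free heme, and Itih3 is a heavy chain of the inter-alpha-trypsin inhibitors, which attach to hyaluronan.

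The data show 3 members with a value in AT-EAE cord alone, namely C2, C3ar1 and Hpx, and the other members had values on all 4 arrays. The Hpx spot and the C3ar1 spot each had a value on AT-EAE array 1 and on no other array. The second C2 spot had a value on AT-EAE array 2 and on no other array, and the first spot of the gene had none on any array. Serping1, Itih3 and both Cp spots had a value on every array, as did 35.3% of all spots. Thus 4 of the 8 spots (50%) had values on each control array, against 6 (75%) and 5 (62.5%) on the AT-EAE arrays. Counted by gene, 3, 3, 5 and 4 of the 6 had a value, in the same order, against 86.2%, 80.1%, 72.4% and 54.9% of all genes. Values on all 4 arrays were held by 3 of the 6 genes (50%), against 53.1% of all genes. No member spot had a value in control cord alone.

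The mean share of member spots with a value was 50% on the control arrays, with the same share on each, and 68.8% ± 8.84 (SD, n = 2 arrays) on the AT-EAE arrays, a difference of 18.8 percentage points. Over all 28704 spots the share went the other way, from 73.6% and 64.7% in control to 54.5% and 37.6% in AT-EAE. Over the 18511 spots with 1 gene, as the member spots are, it went from 80.9% and 72.9% to 61.7% and 42.1%. A value on AT-EAE arrays alone was rare among all spots, at 1.06%, and among all genes, at 0.802%, whereas 20.5% of spots had one on control arrays alone. With 3 of 8 spots and 3 of 6 genes, the members lie above these shares, but they were picked with these presences known, so the counts are a description and were not tested. None of the 3 genes had a value on both AT-EAE arrays. Values on both AT-EAE arrays and no control array were held by 0.195% of all spots. A value on 1 AT-EAE array and no control array was held by 0.861% of all spots and 0.675% of all genes. The presences of C2, C3ar1 and Hpx therefore each rest on 1 spot and 1 array.

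**Figure D1:**
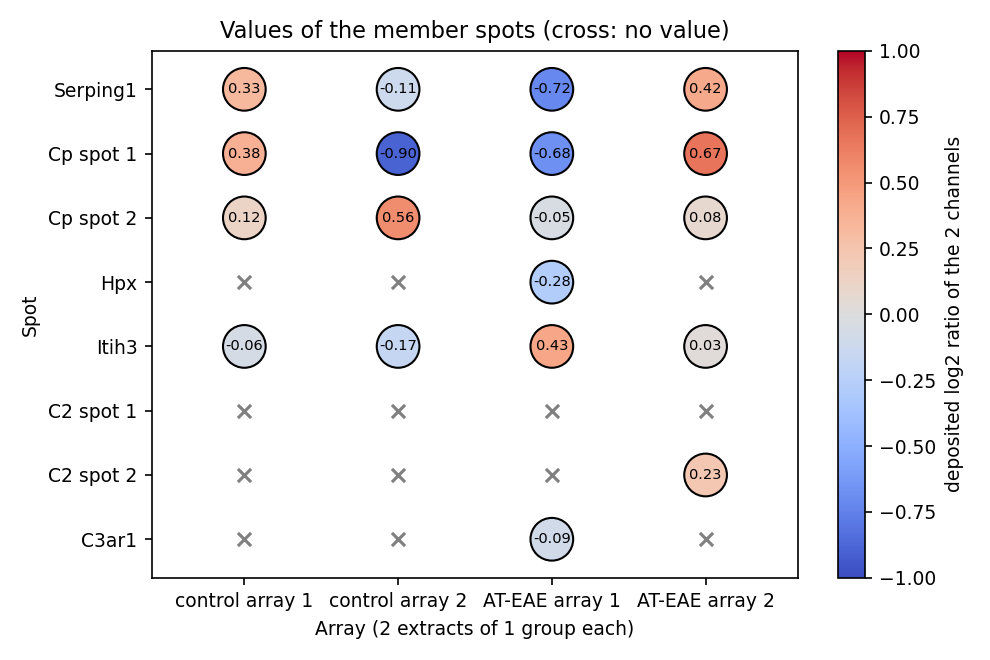
Deposited log2 ratio of each member spot (rows) on each array (columns), with the value printed in the circle, the colour showing its sign and size, and a cross where a spot had no value. Hpx and C3ar1 have a circle on AT-EAE array 1 alone, C2 spot 2 on AT-EAE array 2 alone, and C2 spot 1 nowhere.

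Promoter sequences are given for Hpx and C3ar1, which had values in AT-EAE cord alone, and for Cp, whose 2 spots disagreed. RefSeq windows on GRCm38.p6 were matched for 4 of the 6 members, and the 250 bases before the annotated start were used. The windows are chr7:105600117-105600366 on the minus strand for Hpx, chr6:122856158-122856407 on the minus strand for C3ar1 and chr3:19956999-19957248 on the plus strand for the downstream of the 2 annotated Cp starts. Capitals mark matches, on either strand, to TTNNGNAA (C/EBP, the acute phase activators) or TGANTCA (AP-1).
Hpx: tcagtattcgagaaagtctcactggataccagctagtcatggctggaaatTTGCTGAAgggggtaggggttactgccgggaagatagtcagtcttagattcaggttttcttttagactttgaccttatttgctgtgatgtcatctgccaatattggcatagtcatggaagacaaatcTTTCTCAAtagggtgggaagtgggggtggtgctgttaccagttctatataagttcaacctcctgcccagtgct
C3ar1: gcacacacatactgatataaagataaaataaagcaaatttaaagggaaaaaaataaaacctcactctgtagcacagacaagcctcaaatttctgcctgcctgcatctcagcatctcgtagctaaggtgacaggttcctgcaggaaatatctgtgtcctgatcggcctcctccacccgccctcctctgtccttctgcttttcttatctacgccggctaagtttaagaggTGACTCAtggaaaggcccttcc
Cp: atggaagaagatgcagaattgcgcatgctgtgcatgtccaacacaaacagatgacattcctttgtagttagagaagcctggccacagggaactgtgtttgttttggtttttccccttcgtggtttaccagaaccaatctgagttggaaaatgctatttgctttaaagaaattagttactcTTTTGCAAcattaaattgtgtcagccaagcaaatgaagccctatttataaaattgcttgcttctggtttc
The Hpx window held 2 C/EBP matches, TTGCTGAA from 200 to 193 and TTTCTCAA from 73 to 66 bases before the start. The Cp window held 1, TTTTGCAA from 70 to 63 bases before the start, and the C3ar1 window held 1 AP-1 match, TGACTCA from 22 to 16 bases before its start. The other Cp window held 1 match to each of these motifs, and the Itih3 window had none. The STAT motif TTCNNNGAA, the target of interleukin-6 signalling through STAT3, had no match in the 5 windows. Among all 32851 RefSeq windows of this length, 36.8% held TTNNGNAA, 6.75% held TGANTCA and 7.02% held TTCNNNGAA, so a C/EBP match is common. Serping1 and C2 are not in the table used.

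Of the deposited member ratios in AT-EAE cord, the largest was that of Serping1, on array 1. In control cord Serping1 stood at 0.33 on array 1 and -0.11 on array 2, and in AT-EAE cord at -0.72 and 0.42. The AT-EAE values thus lie on either side of the control values, one below and one above them. If the logarithm is base 2, the last 2 correspond to differences of 1.64-fold and 1.34-fold between pools of diseased mice. The mean was 0.11 ± 0.31 (SD, n = 2 arrays) for control and -0.15 ± 0.80 (SD, n = 2 arrays) for AT-EAE. These signed summaries, and the side on which a value lies, depend on which pool was in which channel. For a gene with 1 spot, the nearest measure of error is the standard deviation (SD) between spots of the same gene on the array, pooled over genes, which was 0.24 and 0.28 for the control arrays and 0.24 and 0.36 for the AT-EAE arrays. In units of it, the Serping1 ratio on AT-EAE array 1 lay at -2.99 from the array median, and on the other arrays within 1.39 of it. Of 7398 genes on AT-EAE array 1, 78 had a lower ratio.

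Itih3 went against Serping1 on AT-EAE array 1. Its single spot read -0.06 and -0.17 in the control pair of arrays, and 0.43 and 0.03 in the AT-EAE pair. It was high on AT-EAE array 1, where 86 of 7398 genes were higher, and near the array median on the remaining arrays. That value lay 1.75 SDs between spots above the array median. Both control values were negative and both AT-EAE values positive, although 0.03 is within the error of a spot of both control values. Of genes with 4 values, 7.92% had opposite signs in the groups in this way. The mean of Itih3 was -0.12 ± 0.08 (SD, n = 2 arrays) for control and 0.23 ± 0.29 (SD, n = 2 arrays) for AT-EAE.

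The members with a value on a single array had small ratios. Hpx was at -0.28 on AT-EAE array 1, which is -1.18 SDs between spots from the array median, with 710 genes lower. C3ar1 was at -0.09 there, or -0.39 SDs from the median. The C2 spot was at 0.23 on AT-EAE array 2, 0.85 SDs above it. All 3 lay within 2 SDs between spots of the array median, and Hpx lay beyond 1.

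Cp was read by 2 spots that did not follow each other. The first Cp spot read 0.38 and -0.90 in control cord, then -0.68 and 0.67 in AT-EAE cord. The second Cp spot read 0.12 and 0.56 in control cord, then -0.05 and 0.08 in AT-EAE cord. The first spot was low on control array 2 and AT-EAE array 1 and high on the other two, with the same sign as Serping1 on every array. The second was high on control array 2 alone and close to 0 on both AT-EAE arrays. Averaged over the spots, Cp came to 0.25, -0.17, -0.36 and 0.37. On control array 2 that mean of -0.17 joins values of opposite sign, 1.46 apart, with an SD between the 2 spots of 1.03.

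A distance of this size between spots of a gene was rare. On control array 2, 7 of 2212 genes with 2 spot values, Cp included, were at least as far apart, which is 0.316%, and the median distance was 0.22. On control array 1 the Cp spots were 0.26 apart, a distance that 38.9% of such genes reached. The AT-EAE arrays had them 0.63 and 0.59 apart, distances that 6.34% and 22.8% of such genes reached. The AT-EAE array 1 value of Cp was -0.68 from its first spot and -0.05 from its second, so the size of that ratio rests on the first spot. The mean of the gene was 0.04 ± 0.30 (SD, n = 2 arrays) for control and 0.00504 ± 0.52 (SD, n = 2 arrays) for AT-EAE. Which part of the transcript each Cp clone covers was not analysed here.

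**Figure D2:**
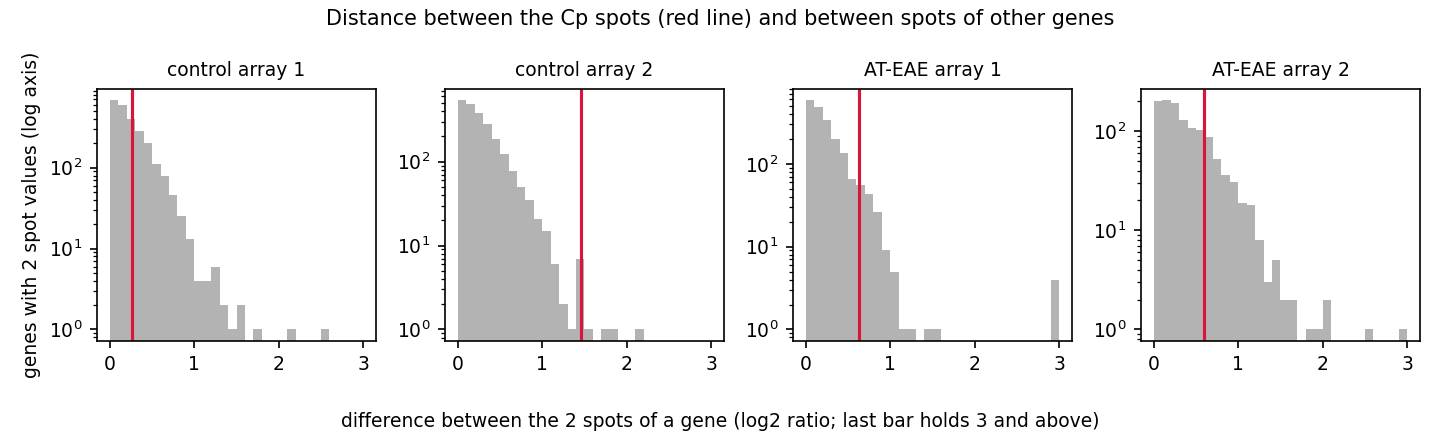
Histograms, 1 per array, of the difference in log2 ratio between the 2 spots of a gene, over genes with 2 spot values, with a log axis for the number of genes and a red line at Cp. On control array 2 the Cp line at 1.46 lies in the far tail, and on control array 1 at 0.26 it lies among most genes.

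In all, 4 of the 19 member values lay at least 2 SDs between spots from the array median. They were the first Cp spot on control array 2, AT-EAE array 1 and AT-EAE array 2, and Serping1 on AT-EAE array 1. Over all spots, 5.2% and 6.35% lay as far out on the control arrays, against 5.36% and 6.89% for AT-EAE. The members were chosen with these ratios known, so no test was made. No member ratio reached 1, a 2-fold difference, which 0.355%, 0.84%, 0.422% and 1.76% of spots did on the same arrays.

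**Figure D3:**
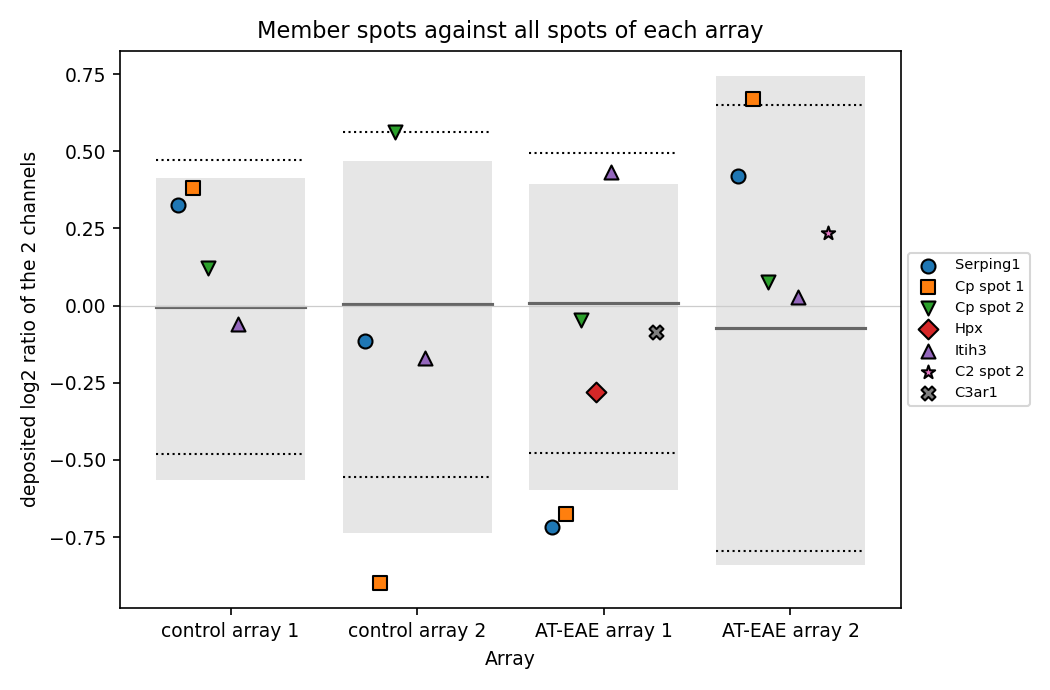
Deposited log2 ratio of the member spots on each array, with grey bars holding the central 95% of all spots, grey lines at the array median over genes and dotted lines 2 SDs between spots from it. Serping1 and the first Cp spot lie together below the bar of AT-EAE array 1, where Itih3 lies above it, and on control array 2 the first Cp spot lies below the bar and the second above it.

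Because arrays carried different pools, a ratio that all of them share can come from the channels, and the members were checked for this. The mean ratio over the arrays was tested with limma on all 10133 spots with 4 values, and 0.0395% of spots were called at a Benjamini-Hochberg adjusted p of 0.05, all 4 of them negative. None of the 4 member spots tested was called by limma, and 0 of them had an unadjusted p under 0.05. The shared ratio was -0.02 (SE 0.17, limma adjusted p = 0.967) for Serping1 and 0.06 (SE 0.11, limma adjusted p = 0.851) for Itih3. It was -0.13 (SE 0.23, limma adjusted p = 0.835) for the first Cp spot and 0.18 (SE 0.12, limma adjusted p = 0.542) for the second. At these errors a channel effect of the size of the second Cp spot's mean was not detectable.

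By mean absolute ratio, Serping1 and Itih3 stood further from 0 in the AT-EAE pools than in the control pools, and for Cp the order depended on the spot. The mean absolute ratio of Serping1 was 0.57 ± 0.21 (SD, n = 2 arrays) in AT-EAE and 0.22 ± 0.15 (SD, n = 2 arrays) in control, a log2 quotient of 1.37. For Itih3 it was 0.23 ± 0.29 against 0.12 ± 0.08 (SD, n = 2 arrays each), a quotient of 1.002, which rests on AT-EAE array 1. For the mean of the Cp spots it was 0.37 ± 0.01 against 0.21 ± 0.06 (SD, n = 2 arrays each), a quotient of 0.81, but the control value is low because spots of opposite sign cancel on control array 2. The first Cp spot alone, an alternative chosen after seeing the data, had 0.67 in AT-EAE and 0.64 in control, a quotient of 0.07. The second Cp spot alone had 0.06 and 0.34, a quotient of -2.49. Over all 5429 genes with 4 values the median quotient was 0.38, and 79.2%, 63.7% and 69.5% of genes lay below Serping1, Cp and Itih3. These quotients were not tested. With 1 array left out, the median of the 3 members stood beside that of all genes at 0.81 and 0.73 without control array 2, 0.83 and 0.66 without AT-EAE array 1, 1.13 and 0.36 without control array 1, and 1.70 and -0.35 without AT-EAE array 2. Without control array 2 or AT-EAE array 1 the members' median thus lay close to that of all genes.

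The genes whose ratios over the 4 arrays were most like those of a member were found by Euclidean distance, after centring and scaling each array. Among 5428 genes, Cpt1a, the carnitine palmitoyltransferase of liver-type fatty acid oxidation, and Josd2, a deubiquitinase gene, were nearest to Serping1, at distances of 1.61 and 1.62 where the median gene lay at 5.18. Cpt1a read 0.15 and -0.23 in control cord, then -0.56 and 0.18 in AT-EAE cord. Josd2 read 0.13 and -0.02, then -0.55 and 0.23. Like Serping1, both were lowest on AT-EAE array 1. Nearest to the mean of the Cp spots were Ankrd44 and Cog4, a subunit gene of a Golgi tethering complex, at distances of 0.69 and 0.70. Nearest to Itih3 were Rhpn2 and the deubiquitinase gene Otud4, at 0.52 and 0.60. No member was nearest to another, and 4 arrays are too few to read more than likeness into these distances.

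The remaining genes of the pathways numbered 59 on the array, of 111 listed, and 46 of them had a value on at least 1 array. Of the 59, 74.6% and 52.5% were measured in control cord, then 66.1% and 47.5% in AT-EAE cord, so the groups overlap. The same shares over all genes were 86.2% and 80.1%, then 72.4% and 54.9%, and no difference between these shares was tested. A value in AT-EAE cord alone was held by 2 of the 59 genes, against 0.802% of all genes. The serum amyloid P gene Apcs and the antiplasmin gene Serpinf2 had a value on AT-EAE array 1 and on no control array, at 0.08 and -0.12. A value in control cord alone was held by 7 of the 59 (11.9%), against 14.8% of all genes. Of those 7, 5 had it on control array 1 alone, namely Cd59b, Cfi, Il1r1, Osmr and Pzp. That array had values for the most genes, 86.2%. The complement regulator gene Cr1l and the lectin pathway protease gene Masp1 had values on both control arrays and on no AT-EAE array, which 9.14% of all genes did. Of 29 spots of these genes with values on all arrays, limma called 0 for a shared ratio in either direction, with 2 at an unadjusted p under 0.05.

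On AT-EAE array 1 all 5 measured genes of the classical and lectin arm and all 3 of the alternative and terminal arm lay below the array median, as Serping1 did. The arms had medians of -0.22 and -0.14 relative to it, and ran from -0.36 to -0.04 and from -0.17 to -0.02. Both medians are smaller in size than the SD between spots on that array, 0.24. The acute phase and plasma carrier genes had 4 below and 6 above the array median on AT-EAE array 1, with a median of 0.04. The C1q subunit genes C1qa, C1qb and C1qc were at -0.23, -0.35 and -0.17 there, each from 1 or 2 spots. They were at 0.43, 0.02 and -0.44 on control array 1 and at 0.15, -0.09 and 0.19 on control array 2. On AT-EAE array 2, C1qa and C1qb were at 0.30 and -0.12, and C1qc had no value. The lowest on AT-EAE array 1 were Itih5, a gene related to Itih3, at -0.67, and Cd59a, an inhibitor of the membrane attack complex, at -0.64. The highest were Socs3, a feedback inhibitor of interleukin-6 signalling, at 0.48, and the metallothionein gene Mt2 at 0.38. Of all 39 genes measured there, 25 lay below the array median and 14 above, with a median of -0.12.

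On the other arrays the pathway genes as a whole were spread around the array median. One gene group with 3 or more measured genes lay wholly on 1 side, the regulators on AT-EAE array 2, with 4 of 4 below it at a median of -0.23. On AT-EAE array 2, 16 of 28 lay below it, with the transthyretin gene Ttr at -0.83 and the clusterin gene Clu at -0.59 lowest, and Socs3 at 0.44 and the kinase gene Jak1 at 0.41 highest. Ttr is best known in the nervous system from the choroid plexus, and clusterin is a chaperone that also restrains the terminal complex. On control array 1, 19 of 44 lay below, from the NF-kB subunit gene Rela at -0.52 and the ficolin gene Fcnb at -0.50 to Trf at 0.23 and C1qa at 0.43. On control array 2, 16 of 31 lay below, from the decay accelerating factor gene Cd55 at -0.71 and Jak2 at -0.44 to Mt2 at 0.24 and the factor B gene Cfb at 0.42. The pathway medians on these 3 arrays were -0.05, 0.03 and -0.02 relative to the array. Among the relatives of Itih3, Itih1 and Itih4 were at 0.20 and 0.23 on AT-EAE array 1, of the same sign as Itih3, and Itih2 and Itih5 were at -0.11 and -0.67, of the opposite sign.

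**Figure D4:**
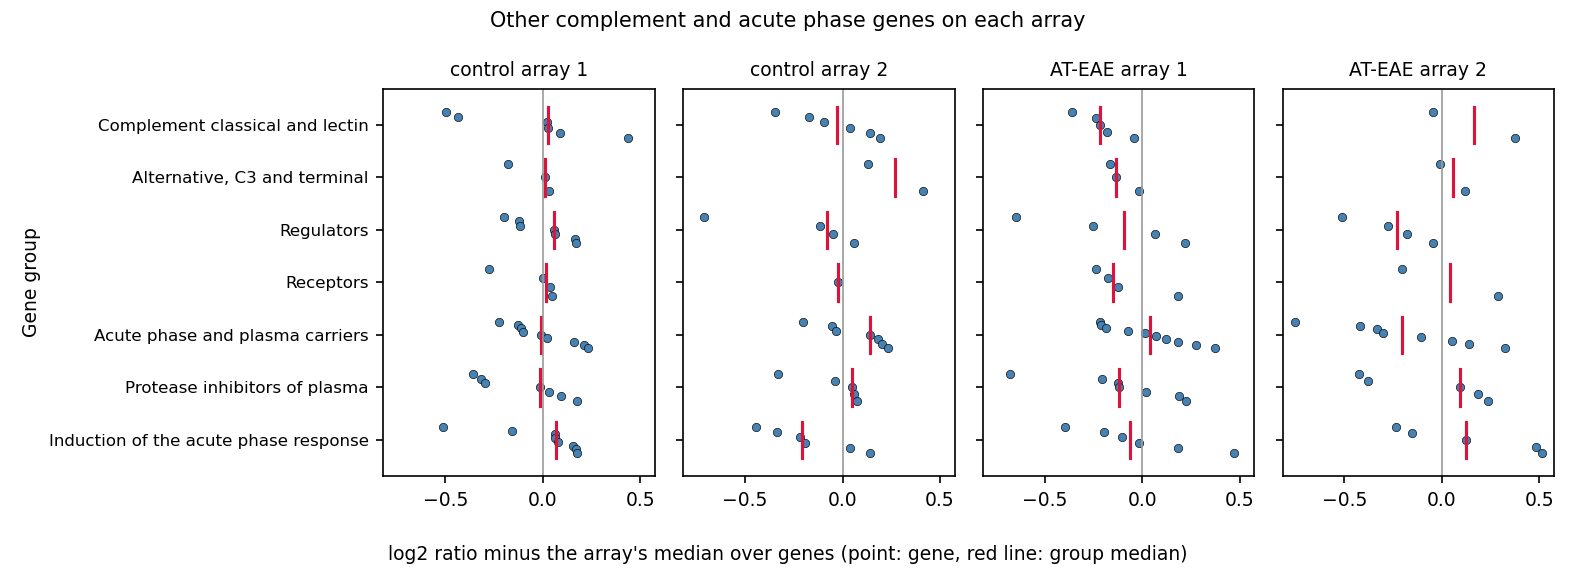
Log2 ratio minus the array median of the other complement and acute phase genes (points), by gene group (rows) and array (panels), with red lines at group medians. On AT-EAE array 1 the 8 points of the upper 2 rows all lie left of 0, and on control array 1 both rows hold points on either side.

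On AT-EAE array 1, 38 of all 52 measured cell type markers lay below the median, as Serping1 did, but the lists differed. Below it were 3 of 5 neuron, 1 of 2 endothelium, 2 of 4 red blood cell, 4 of 8 astrocyte and 3 of 7 hepatocyte genes. The 3 oligodendrocyte genes (median -0.22) and the 3 neutrophil genes (median -0.09) measured there all lay below it. Marker lists lay wholly on 1 side of the median on the other arrays too. On control array 1, 8 of 8 astrocyte genes lay above it and 6 of 6 hepatocyte genes below. On control array 2, 4 of 4 neutrophil and 4 of 4 red blood cell genes lay above it, and 3 of 3 oligodendrocyte genes below. On AT-EAE array 2, 4 of 4 neuron genes and 3 of 3 neutrophil genes (median -0.49) lay below it. Of the microglia and macrophage list, 12 of 17 genes were on the array and 11 were measured on AT-EAE array 1. There 11 of 11 lay below the array median, from -1.02 to -0.06 with a median of -0.29. That list shares C1qa, C1qb and Itgam with the pathway genes. Its medians on the remaining arrays were 0.08 and 0.01 in control and 0.02 in AT-EAE. The leukocyte marker gene Ptprc had no value on any array, and Aif1, Csf1r, Cx3cr1, Trem2 and P2ry12 were not on the array by symbol. Of the meninges and fibroblast list 8 of 9 measured genes lay below the median on AT-EAE array 1, from -0.92 to 0.11 with a median of -0.29, and the medians elsewhere were -0.02 and -0.09 in control and 0.08 on AT-EAE array 2.

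Astrocyte genes, which include a source of ceruloplasmin, had a median of -0.02 on AT-EAE array 1, with 4 of 8 below, and 0.28 on AT-EAE array 2. Hepatocyte genes, whose products make up much of plasma, had 3 of 7 below on AT-EAE array 1, with a median of 0.00491, and values for Alb and Apoa1 on all arrays. The 2 T cell genes on the array, Cd4 and Cd28, had no value on any. Nefl, Uchl1 and Mbp, neuron and myelin markers of the labelled tissue, had values on every array. The part of these cell types in the ratios of the members was not tested, and in bulk tissue fewer cells of a type and less RNA per cell cannot be told apart.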

How the data were processed

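Spinal cord RNA was measured on 4 arrays of 28704 spots, 2 per group. The deposited values are, per the labels, comparisons of normalized green and red signals within a slide, and were taken as log2 ratios. The sources used here do not give the log base, numerator channel, background correction, spot filter or normalization method, and dimness of spots was not analysed here. Columns of no sample numbered 0. The number of arrays limits the precision.

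Clones were named from the platform's annotation table, with symbols updated through gene identifiers to GRCm38.p6 for 18267 spots and kept for 244. Several-gene (937) and unnamed (9256) spots were never named. Spots of a gene were averaged. Presence and ratios were described without a test. limma (3.58.1, R 4.3.3) tested the mean ratio over arrays, group means weighted equally, with Benjamini-Hochberg adjustment over all spots with 4 values. In simulated data of 10133 spots it recovered 93 of 100 spots shifted by 0.5 and 100 of 100 shifted by 1, with 6 unshifted spots called. The simulated spots of an array all had the same SD. In the data the spots differed in spread, with standard errors of 0.11 to 0.23 for the member spots, so recovery there can be lower. Python 3.11.15 with pandas 2.3.3 was used.

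All 6 genes were named with every spot. Of the other pathway genes, those named are the 2 lowest and 2 highest on each array and those with values on both arrays of 1 group and none of the other, plus the 2 genes nearest to each member. Apcs, Serpinf2, Cd59b, Cfi, Il1r1, Osmr, Pzp, the C1q genes and the relatives of Itih3 were chosen after their values were seen. The members and lists were chosen with earlier results of these data known. Spread between arrays may be partly technical. Alternatives were the counting unit, spot summary, centring, scaling, symbols, model and arrays left out.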

Additional observations from a re-analysis of the deposited data

Results flagged for a closer look

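Itih3 had negative ratios on both control arrays, at a mean of -0.12 ± 0.08 (SD, n = 2 arrays), and positive ratios on both AT-EAE arrays, at a mean of 0.23 ± 0.29 (SD, n = 2 arrays). The difference of 0.35 was not tested. Among the 5429 genes with 4 values, 7.92% had such opposite signs in the 2 groups. The ratios compare pools within a group, so this says nothing of Itih3 levels in AT-EAE against control cord. The signs also depend on which pool was in which channel.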

How the results depend on the processing

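Of 92 recomputed member ratios, 42 came out identical, since the median of 2 spots is their mean and the other settings concerned kept the same member spots. Of the 50 that could move, 46 moved by less than the SD between spots and 4 by more. The 4 were all Cp ratios read from 1 spot, an alternative chosen after seeing the data: -0.90 or 0.56 on control array 2, and -0.68 or -0.05 on AT-EAE array 1. Taking away the mean ratio of the other group turned Serping1 on control array 2 from -0.11 to 0.03. The AT-EAE minus control difference in the share of member spots with a value was 25 percentage points counted by gene, and 12.5 to 25 with 1 array left out (12.5 without AT-EAE array 1, 25 without AT-EAE array 2). The median size quotient of the 3 members with 4 values, 1.002, ranged from 0.81 to 1.70 with 1 array left out. That of all genes ranged from -0.35 to 0.73, nearest to the members without control array 2.

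The 4 spots that limma called for a shared ratio became 1 gene by gene means. Whether a spot of that gene was among the 4 was not tested. With 1 array left out the calls numbered 29 to 740. They were 36 without control array 1, 29 without control array 2, 740 without AT-EAE array 1 and 134 without AT-EAE array 2. In these fits the lone array is assumed to vary like the others. With the replicate number as a block the 4 calls became 49. The number pairs no animals, and the deviations of same-numbered arrays had a weak negative correlation (-0.33 over 10133 spots). The sign of that correlation depends on which pool was in which channel. A crossed pairing, chosen after seeing the data, gave 4 calls. No member spot was called in any of these fits to spots, the lowest limma adjusted p being 0.0709, for the first Cp spot without AT-EAE array 2. A difference smaller than the SD between spots, 0.24 to 0.36, is not detectable for a gene with 1 spot, and a larger one can still be spot error. The mark used for single values was 2 SDs between spots, 0.48 to 0.72 by array.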
